A study of Mus musculus with 12 samples.

Results

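The thymus holds 2 main kinds of epithelial cell (TEC), and the question taken up here is whether the loss of MHC class II (MHCII) acted on them alike. The comparison used all 12 libraries of the 12 in the series, and its members were the samples themselves, chosen by label and not by any measured value. For every gene, the log2 ratio of WT to Aβ0/0 was taken in medullary TEC (mTEC) and again in cortical TEC (cTEC), and the second was subtracted from the first. This difference is the interaction term. A positive term means that the WT to Aβ0/0 ratio was larger in mTEC, a negative term that it was larger in cTEC, and a term of 0 that the genotypes differed equally in both.

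The 4 groups were WT mTEC, Aβ0/0 mTEC, WT cTEC and Aβ0/0 cTEC, with 3 libraries each. Aβ0/0 mice carry a disrupted H2-Ab1, the gene of the β chain of the MHCII molecule I-A, in all their cells, and the WT controls were C57BL/6 mice. Each library came from a pool of 5 to 10 animals aged 4 to 6 weeks, whose thymic cells were depleted of CD45+ cells with beads and then sorted as Epcam+CD45-Ly51+UEA1- (cTEC) or Epcam+CD45-Ly51-UEA1+ (mTEC). The study lists cTEC and mTEC yields side by side for each replicate, so libraries that share a genotype and a replicate number were taken to come from one pool of mice, which the sample labels do not state. Fewer cells were sorted for each Aβ0/0 mTEC library than for any WT mTEC library, so in mTEC the number of cells and the genotype cannot be told apart. In cTEC, too, fewer cells were sorted for Aβ0/0 than for WT in each replicate, though the ranges overlap. In bulk RNA, fewer cells of a type and less RNA per cell cannot be told apart either.

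Developing T cells meet cTEC first, where self-peptides on MHC molecules decide which cells survive, and then mTEC, which display tissue-restricted antigens under the control of Aire and Fezf2 and delete or divert self-reactive cells. mTEC in turn depend on the T cells. CD4 thymocytes that recognise peptide and MHCII on an mTEC supply ligands for the receptors CD40 and RANK, which signal through NF-kB and sustain mTEC maturation. Without MHCII, mature CD4 T cells hardly form. This known crosstalk is mainly one of the medulla, which makes the contrast of the subsets a natural question.

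Expression is given as CPM, counts scaled to a common library size. Estimated counts from kallisto were summed over the transcripts of a gene and scaled with TMM. Estimated counts per library ranged from 21.7 M to 36.1 M with a median of 29.6 M, and 3 counts, taken as the floor of detection in a library, corresponded on average to 0.112 CPM in Aβ0/0 mTEC and in WT cTEC and to 0.0918 CPM in Aβ0/0 cTEC. H2-Ab1 itself was at 10231 ± 1107 CPM (mean ± SD, n = 3 here and throughout) in WT and 2891 ± 976 in Aβ0/0 mTEC, and at 7847 ± 1909 and 2872 ± 787 in cTEC. All WT libraries were above all Aβ0/0 libraries in each subset, and the interaction term of H2-Ab1 was 0.37 (SE 0.43, adjusted p = 0.982, edgeR), with 0.15 to 0.64 when each library was left out, so a different loss in the subsets was not detectable, and its transcript was still counted in Aβ0/0 cells. The sort labels were borne out by markers. Aire was between 121 and 1002 CPM in mTEC and between 0.248 and 12.5 in cTEC, and Prss16, the thymus-specific serine protease of the cortex, between 2205 and 6571 in cTEC and between 70.7 and 220 in mTEC. Several libraries stood apart in genes of other cells. The summed level of 14 thymocyte markers was 442 to 918 CPM in WT and 1077 to 1467 in Aβ0/0 cTEC, and 162 to 282 and 81.1 to 217 in mTEC. That of 15 dendritic cell and macrophage markers, most of it Lyz2, was 645 to 688 in WT and 122 to 668 in Aβ0/0 mTEC against at most 288 in cTEC, with Fcgr1 at 0 in every library and Itgax, Adgre1 and Clec9a at 0 in Aβ0/0 mTEC. Granulocyte markers (10 genes) summed to 577 to 741 in WT and 102 to 305 in Aβ0/0 mTEC, where Ngp, Elane and Retnlg were at 0.

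Of 19461 genes tested, 2 passed an adjusted p of 0.05 for the interaction term (0.0103%), Hmga1b and Ccl9 (quasi-likelihood test of edgeR, adjusted after Benjamini and Hochberg). The same fit gave 20 genes for the genotype effect in mTEC (0.103%), 16 for that in cTEC (0.0822%) and 35 for their average (0.18%). At an unadjusted p under 0.05, 1343 genes had an interaction term away from 0. The WT to Aβ0/0 ratio was larger in mTEC for 771 of them (3.96% of those tested) and larger in cTEC for 572 (2.94%). Apart from Hmga1b and Ccl9, these genes failed the adjustment for multiple tests in edgeR and are described below as a ranking. Other tools called far more: 268 genes with DESeq2, 695 with limma voom and 888 with limma on the deposited rlog values passed the same adjusted threshold, and 71 were called by all 3. Of the genes named below, the latter were Ccl9, Pif1, Csmd1, Il2rg, Srpx, Coro1a, H2-T3, Rnase1, Irf8, Oas3, Sult5a1, Fga, Fgg and Cd86. Their adjusted p in edgeR was 0.235 for H2-T3, 0.238 for Rnase1 and 0.377 for Fga, and is given below for the others. The pool of mice as a fixed block left 0 adjusted calls, and 743 unadjusted ones with a larger ratio in mTEC and 567 with a larger ratio in cTEC (edgeR), whereas the pool as a random block in limma gave 857 adjusted calls, 94.4% of them with a larger ratio in mTEC. The split of the unadjusted calls also moved with the scale and with single libraries. The share with a larger ratio in mTEC was 57.4% here, 65.1% with DESeq2's size factors, 79.7% with voom and 86.3% on the rlog values, and it was 70.0% without Aβ0/0 mTEC replicate 1 but 43.5% without Aβ0/0 cTEC replicate 1.

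Across genes the effects in the 2 subsets were weakly correlated. The correlation of the log2 ratio in mTEC with that in cTEC over the 19461 genes was 0.13 (Pearson) and 0.07 (Spearman), and over the 10639 genes with at least 5 CPM in each group it was -0.01 (Pearson). These points are genes and not replicates, and the ratios of the subsets rest on the same pools. Of the genes at an unadjusted p under 0.05 in both subsets, 263 had the same sign and 61 opposite signs. The sets named next were chosen by the interaction term, which by itself keeps genes of like effects out. Among the 771 genes with a larger ratio in mTEC, 536 differed at an unadjusted p under 0.05 in mTEC alone, 80 in cTEC alone, 47 in both with opposite signs, 1 in both with the same sign (Hmga1b) and 107 in neither. Among the 572 with a larger ratio in cTEC, 211 differed in mTEC alone, 236 in cTEC alone, 14 in both with opposite signs, 8 in both with the same sign and 103 in neither.

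**Figure D1:**
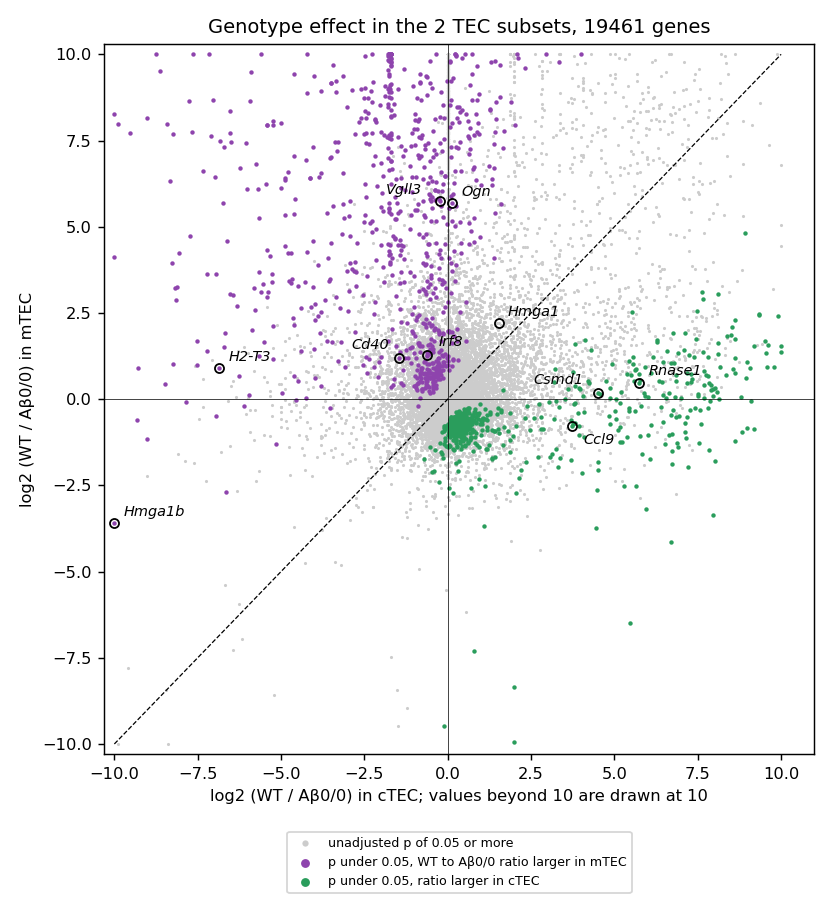
Log2 ratio of WT to Aβ0/0 in cTEC (horizontal axis) against that in mTEC (vertical axis) for 19461 genes, fitted by edgeR on 12 libraries. The dashed line marks equal effects. Purple points (771 genes, unadjusted p under 0.05) lie above it and green points (572) below it, values beyond 10 are drawn at the edge, and Hmga1b and Ccl9 are the 2 genes past an adjusted p of 0.05.

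Many of these genes were at the floor in 1 group. Of the 771 genes with a larger ratio in mTEC, 357 had at most 3 counts in each Aβ0/0 mTEC library but more in WT mTEC, and 184 had at most 3 counts in each WT cTEC library but more in Aβ0/0 cTEC. Of the 572 genes with a larger ratio in cTEC, 155 had at most 3 counts in each Aβ0/0 cTEC library but more in WT cTEC, and 429 had a mean of at least 1 CPM in both subsets. The filter asked for counts in as many libraries as 1 group holds, so a gene can be tested through the 1 group where it was high. Over all genes tested, 1318 were at the floor in Aβ0/0 mTEC alone of the mTEC groups and 36 in WT mTEC alone, and in cTEC these numbers were 915 and 394. Fewer cells were sorted for Aβ0/0 than for WT in both subsets, which moves with that imbalance, and its part in it was not tested.

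Ccl9 (ENSMUSG00000019122, mm10 chr11:83572919-83578636, minus strand) encodes a CC chemokine that in the thymus marks mTEC resembling microfold cells of the gut epithelium. The WT mTEC libraries held 66.9, 92.1 and 77.6 CPM of Ccl9, the Aβ0/0 mTEC libraries 197, 95.4 and 117. For cTEC the levels were 3.58, 8.39 and 8.5 CPM with WT and 0.407, 0.484 and 0.634 with Aβ0/0. The groups did not overlap in either subset, but in opposite directions, with the lowest Aβ0/0 mTEC library only just above the highest WT one. The means gave a 1.73-fold higher level in Aβ0/0 mTEC and a 13.4-fold higher level in WT cTEC, and the interaction term was -4.52 (SE 0.55, adjusted p = 0.0321, edgeR). Most of the difference came from cTEC, where the log2 ratio was 3.73 (SE 0.43), while in mTEC it was -0.79 (SE 0.36, unadjusted p = 0.0502, edgeR). The cTEC level was 8.64% of the mTEC level in WT and 0.373% in Aβ0/0. Whether mTEC among the sorted cTEC carried part of the cTEC level was not tested. Within a pool, the log2 ratio of mTEC to cTEC, with 0.5 CPM added to each, was 4.05, 3.38 and 3.12 in the WT pools and 7.77, 6.61 and 6.69 in the Aβ0/0 pools. The call of Ccl9 depended on the fit. Its adjusted p was 7.98e-10 with DESeq2, 0.047 with limma voom, 0.0155 on the rlog values and 0.0337 with the pool as a random block in limma. With the pool as a fixed block in edgeR it was 0.178, and it was between 0.0107 and 0.266 when each library was left out in turn, past the threshold only without WT cTEC replicate 1 or Aβ0/0 mTEC replicate 1 or 2, with a term between -4.79 and -4.10. The coding transcript Ccl9-201 held between 89.8% and 100% of the estimated counts in each group.

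Hmga1b (ENSMUSG00000078249, chr11:120762794-120764419, plus strand) is a near-identical copy of Hmga1 (ENSMUSG00000046711, chr17:27556497-27563674, plus strand), which encodes an AT-hook chromatin protein of the high mobility group. Hmga1 lies 6.7 Mb from H2-Ab1 on the same chromosome. The transcript Hmga1b-201 of 1626 bases matched the 1595 bases of Hmga1-203 over 1598 aligned positions with an identity of 99.625%, 3 mismatches and a gap of 3 bases. The mismatches are shown because within the aligned stretch only reads that cover one of them or the gap can tell the genes apart. Counted from the 5′ end of Hmga1b-201 (GENCODE M21 transcripts), and with the differing base in capitals, they were G657A, G784A and T1246G.
Hmga1b, 643 to 671: ttagccgcagcccgGcctgctgcgcacct
Hmga1, 640 to 668: ttagccgcagcccgAcctgctgcgcacct
Hmga1b, 770 to 798: ccttaaggggccccGgccccatctcactc
Hmga1, 767 to 795: ccttaaggggccccAgccccatctcactc
Hmga1b, 1232 to 1260: ggttgtgttgttttTtttttgttccatgt
Hmga1, 1229 to 1257: ggttgtgttgttttGtttttgttccatgt
In cTEC, Hmga1b was at 0 in all WT libraries and at 57, 58.3 and 74.4 CPM in Aβ0/0, a mean at least 567-fold above the floor of 3 counts per library. The mTEC levels were 2.73, 2.51 and 1.22 CPM for WT against 26.6, 23.3 and 28.2 for Aβ0/0, a 12.1-fold difference in the same direction. The interaction term was 10.25 (SE 0.87, adjusted p = 0.00596, edgeR), a size that depends on the prior count because 1 group is at 0. Hmga1 had the opposite order in both subsets, with 62.8 ± 12.3 CPM in WT and 13.7 ± 3.22 in Aβ0/0 mTEC and with 87.7 ± 2.01 and 30.3 ± 4.17 in cTEC. Whether reads counted for Hmga1b in Aβ0/0 libraries came from Hmga1b or from Hmga1 cannot be told apart here. Of the counts of both genes together, Hmga1b held 3.31% in WT and 65.6% in Aβ0/0 mTEC, and 0% and 67.6% in cTEC. The summed level was 87.7 ± 2.01 CPM in WT and 93.5 ± 13.8 in Aβ0/0 cTEC, and 64.9 ± 12.1 and 39.8 ± 5.69 in mTEC. With the 2 genes summed, the interaction term was 0.80 (SE 0.31, adjusted p = 0.611, edgeR), and 0 genes passed the threshold. The adjusted p of Ccl9, now the gene with the smallest p, was then 0.0642. With the pool as a block and the genes apart, the adjusted p of Hmga1b was 0.178 with a fixed block (edgeR) and 0.00249 with a random one (limma).

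Vgll3 (ENSMUSG00000091243, chr16:65815257-65866368, plus strand) encodes a cofactor of the TEAD transcription factors of the Hippo pathway. It was mainly a cTEC gene, with 14.9, 19.4 and 16.2 CPM in WT and 18, 11.8 and 29 in Aβ0/0 cTEC, where the genotypes overlapped. The mTEC levels were 1.36, 1.66 and 3.61 CPM for WT against 0.0385, 0.0356 and 0.0377 for Aβ0/0, which is 1 count in each Aβ0/0 library. The ratio of WT to Aβ0/0 mTEC from 202 against 3 counts was 61.3 with an exact 95% interval of 20.7 to 300.0, which covers counting error only. The interaction term was 5.96 (SE 0.95, adjusted p = 0.235, edgeR), with an adjusted p of 4.6e-05 in DESeq2, 0.0194 in limma voom, 0.0725 on the rlog values (term 1.48) and 0.693 with the pool as a fixed block in edgeR. With the pool as a random block in limma, the adjusted p was 0.0115. Vgll3 has 1 annotated transcript here, so its count was not shared among isoforms.

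Cd40 (ENSMUSG00000017652, chr2:165055627-165072948, plus strand), the receptor through which CD4 thymocytes signal to mTEC, had its levels crossed between the subsets. Its mTEC levels were 231, 224 and 201 CPM for WT against 48.2, 159 and 80.5 for Aβ0/0. Its cTEC levels were 17.7, 14.5 and 12.4 CPM for WT against 34.7, 64.1 and 25 for Aβ0/0. Every WT library was above every Aβ0/0 library in mTEC and below every one in cTEC, with means that differed 2.28-fold and 2.78-fold. Within a pool, the mTEC to cTEC log2 ratio was 3.68, 3.90 and 3.97 in WT and 0.47, 1.31 and 1.67 in Aβ0/0, so that cTEC came much closer to mTEC without MHCII. The interaction term was 2.66 (SE 0.60, unadjusted p = 0.000822, adjusted p = 0.35, edgeR), with an adjusted p of 0.00155 in DESeq2, 0.0677 in limma voom and 0.0366 on the rlog values. With the pool as a block, the adjusted p was 0.395 when fixed (edgeR) and 0.032 when random (limma). The coding transcript Cd40-202 held the largest share of its estimated counts in each group, from 61.4% in WT mTEC to 70.3% in Aβ0/0 mTEC.

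**Figure D2:**
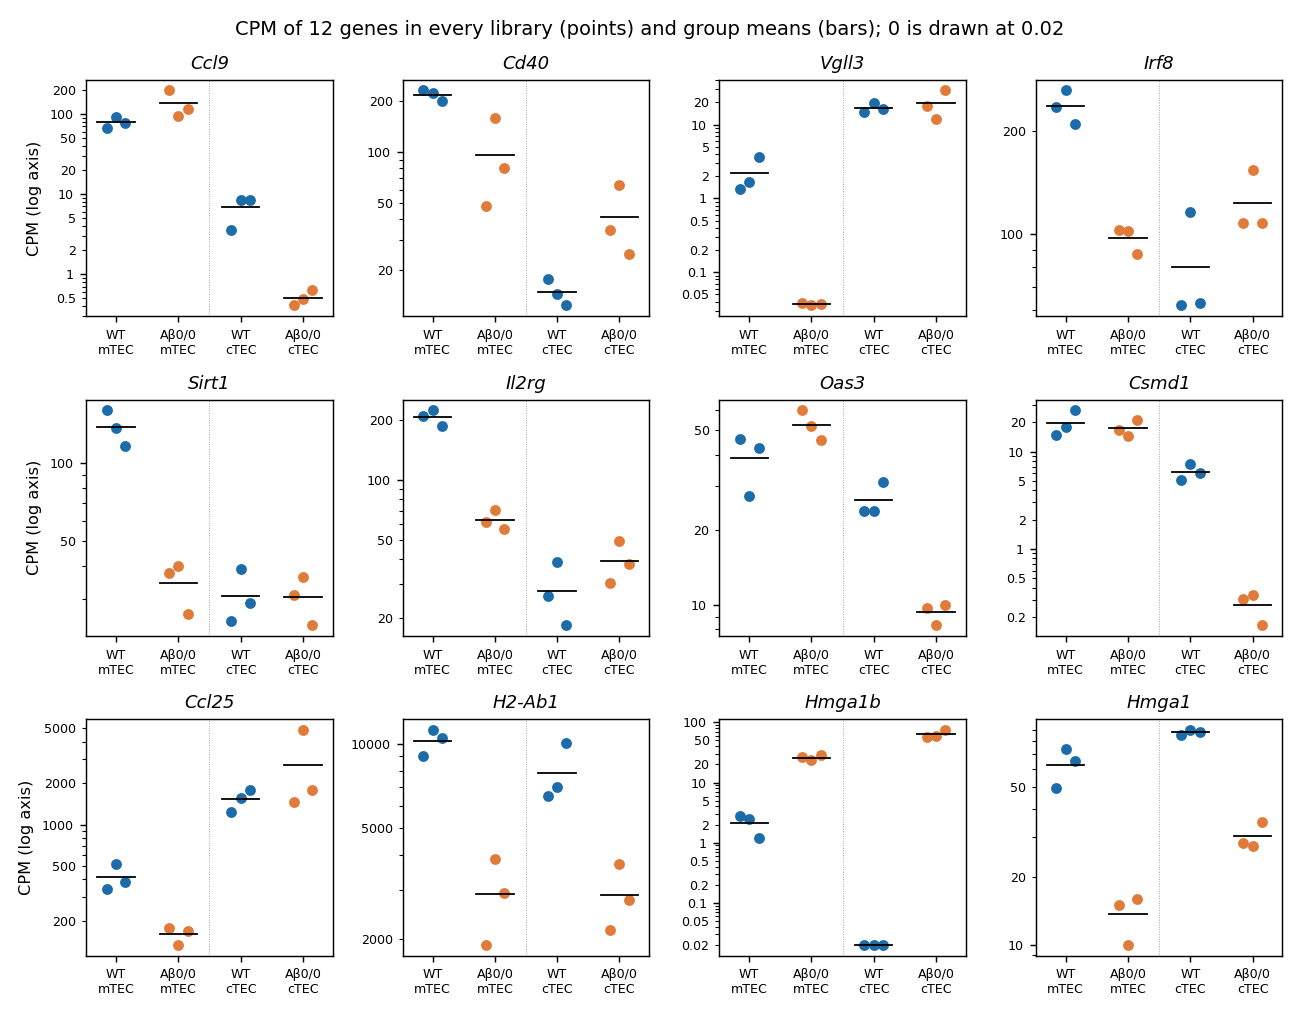
CPM (log axis) of 12 genes in each of the 12 libraries, blue for WT and orange for Aβ0/0, with the group mean as a bar and mTEC left of the dotted line. Ccl9 and Cd40 differed in opposite directions in the subsets, Vgll3, Irf8, Sirt1 and Il2rg were lower in Aβ0/0 mTEC, Oas3 and Csmd1 were lower in Aβ0/0 cTEC, and Hmga1b and Hmga1 moved against each other.

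Crossed levels as in Cd40 and Ccl9 were rare. WT lay above Aβ0/0 in mTEC and below it in cTEC without overlap for 64 genes (0.329%), and the reverse held for 47 genes (0.242%). With 3 libraries per group some genes cross without any effect of genotype, and these shares were not compared with such a number. With at least 1 CPM in each subset and an unadjusted p under 0.05, 67 crossed genes remained, 28 with a positive and 39 with a negative term. The 10 with the smallest p were Ccl9, Pif1, Kcna1, H2-T3, Slc34a2, CR974586.5, Sult5a1, 4933427D14Rik, Cd40 and Ppm1l. Sult5a1, a sulfotransferase, was at 66.4, 70.2 and 91.1 CPM in WT and 159, 213 and 198 in Aβ0/0 mTEC, and at 112, 106 and 253 in WT and 98.7, 91.4 and 68 in Aβ0/0 cTEC. Its interaction term was -2.19 (SE 0.46, adjusted p = 0.27, edgeR). Ppm1l, a protein phosphatase of stress kinase signalling, was at 27.7 ± 4.6 CPM in WT and 58.8 ± 14.4 in Aβ0/0 mTEC and at 63.1 ± 11.5 and 44.5 ± 4.79 in cTEC, with a term of -1.59 (SE 0.37, adjusted p = 0.361, edgeR). Taken pool by pool, the mTEC to cTEC ratio of all 3 WT pools lay above that of all 3 Aβ0/0 pools for 2791 genes (14.3%) and below it for 1145 (5.88%). Some genes separate in this way without any effect too, and how many was not tested.

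Among the 10 leading protein-coding genes with a larger ratio in mTEC, 5 were alike, namely Vgll3, Ogn, Srpx, Kcna1 and Pif1. Over both genotypes each had a higher mean in cTEC than in mTEC, and its low level in WT mTEC was at or near 0 in Aβ0/0 mTEC. In WT alone, Pif1 was higher in mTEC (mean 4.23 CPM) than in cTEC (1.99 CPM). Fibroblast markers (9 genes) also had higher levels in the cTEC libraries, with sums of 2382 to 3222 CPM against 256 to 593 in mTEC, where WT (256 to 346) and Aβ0/0 (301 to 593) overlapped. Their part in these genes was not tested. Ogn, an extracellular matrix proteoglycan, was at 3.66, 0.996 and 5.46 CPM in WT and 0, 0.107 and 0.0754 in Aβ0/0 mTEC, against 65 ± 27.2 and 59.1 ± 6.37 in cTEC. Srpx, a sushi-repeat protein, was at 2.09, 0.423 and 1.32 CPM in WT mTEC and at 1 count in all Aβ0/0 mTEC libraries together, against 27.2 ± 9.58 and 30 ± 7.38 in cTEC. Kcna1, a voltage-gated potassium channel, was at 2.13, 2.02 and 2.42 CPM in WT mTEC, a mean at least 19.6-fold above the floor, and at 0 in Aβ0/0 mTEC, while in cTEC it was at 14.7, 8.54 and 0.718 in WT and 15, 25.1 and 27.6 in Aβ0/0. None of these genes passed the adjusted threshold (each 0.235, edgeR). Psmb11, the catalytic subunit of the cortical thymoproteasome, was between 19.3 and 44.4 CPM in WT and between 18.4 and 34.6 in Aβ0/0 mTEC.

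Other leading genes were well above the floor in each group, lower in every Aβ0/0 mTEC library than in any WT mTEC library, and overlapping between genotypes in cTEC. Il2rg, the common chain of several interleukin receptors, was at 211, 225 and 187 CPM in WT and 61.4, 70.5 and 56.3 in Aβ0/0 mTEC, and at 27.7 ± 10.1 and 39.1 ± 9.8 in cTEC. Its interaction term was 2.23 (SE 0.40, adjusted p = 0.235, edgeR). Sirt1, a deacetylase known to act on Aire, was at 159, 136 and 116 CPM in WT and 37.6, 40 and 26.3 in Aβ0/0 mTEC, and at 30.9 ± 7.35 and 30.4 ± 6.3 in cTEC. Its mTEC to cTEC log2 ratio was 2.66, 1.79 and 1.98 in the WT pools and 0.27, 0.14 and 0.14 in the Aβ0/0 pools, so that its enrichment in mTEC was nearly gone, with a term of 1.96 (SE 0.39, adjusted p = 0.266, edgeR). Coro1a, an actin regulator of haematopoietic cells, was at 45.8 ± 10.4 and 14.1 ± 3 CPM in mTEC and at 89.9 ± 16 and 118 ± 30.2 in cTEC, a term of 2.09 (SE 0.39, adjusted p = 0.235, edgeR). Thymocyte markers moved with Coro1a and Il2rg in the same direction (13 of 14 had a positive term, none past the adjusted threshold, median 1.29), and their part in these values was not tested.

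H2-T3, an MHC class Ib gene in the MHC region, was crossed, with 0.494, 0.0915 and 0.0399 CPM in WT and 16.9, 37.5 and 18.4 in Aβ0/0 cTEC, against 2.78 ± 0.605 and 1.49 ± 0.982 in mTEC. Pif1, a DNA helicase, was at 4.05, 5.01 and 3.64 CPM in WT mTEC, a mean at least 37.9-fold above the floor, and at 0 in Aβ0/0 mTEC, whereas in cTEC it was at 1.99 ± 1.41 in WT and 11.1 ± 9.11 in Aβ0/0.

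The 10 leading protein-coding genes with a larger ratio in cTEC were alike in form. Each had a higher mean in mTEC than in cTEC, and each was lower in all Aβ0/0 cTEC libraries than in any WT cTEC library. Csmd1, a large complement-control membrane protein, was at 14.8, 17.7 and 26.5 CPM in WT and 16.7, 14.5 and 21 in Aβ0/0 mTEC, and at 5.14, 7.44 and 5.98 in WT and 0.306, 0.333 and 0.165 in Aβ0/0 cTEC. The genotypes overlapped in mTEC and differed 23.1-fold in cTEC, an interaction term of -4.34 (SE 0.76, adjusted p = 0.235, edgeR). Rnase1, a secreted ribonuclease, was at 73.1 ± 9.4 and 52.4 ± 18.9 CPM in mTEC and at 3.13, 6.31 and 9.69 in WT against 0.306, 0 and 0.0551 in Aβ0/0 cTEC. Rbp4, the plasma carrier of retinol, was at 3.79, 7.1 and 4.15 CPM in WT and 0, 0.0908 and 0.0275 in Aβ0/0 cTEC, while its mTEC levels spread from 6.14 to 80. Slc34a2, a phosphate transporter, was at 42.9 ± 2.55 and 61.6 ± 15.5 CPM in mTEC and at 3.69 ± 0.606 and 0.531 ± 0.333 in cTEC. Vnn3, a vanin family enzyme, and 1110017D15Rik were at 0 in every Aβ0/0 cTEC library, with WT cTEC means at least 20.9-fold and 25.1-fold above the floor and single WT libraries down to 0.329 and 0.864 CPM. Sox18, a transcription factor of vascular development, and Adamts13, the protease of von Willebrand factor, held 1 and 3 counts over the Aβ0/0 cTEC libraries against 169 and 88 in WT cTEC. Endothelial markers (9 genes) summed to 65.0 to 163 CPM in WT and 31.9 to 58.3 in Aβ0/0 cTEC and to 83.6 to 119 and 40.3 to 62.9 in mTEC, without overlap in either subset, and their part was not tested. CR974586.5, on the scaffold JH584293.1, was at 77.3 ± 9.83 and 141 ± 48.7 CPM in mTEC and at 5.27 ± 0.97 and 1.86 ± 0.75 in cTEC.

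Low levels of mTEC genes in cTEC libraries did not all differ by genotype. Aire was at 3.79, 12.5 and 5.31 CPM in WT and 1.36, 0.484 and 0.248 in Aβ0/0 cTEC, a 10.3-fold difference, but it also differed 4.59-fold in mTEC, and its interaction term was -1.19 (SE 0.79, adjusted p = 0.875, edgeR), with -0.47 without WT cTEC replicate 2, -0.76 without Aβ0/0 cTEC replicate 3 and -2.09 without Aβ0/0 cTEC replicate 1. Fezf2 was at 3.87, 9.21 and 13.8 CPM in WT and 3.12, 8.59 and 7.52 in Aβ0/0 cTEC, and Tnfrsf11a, which encodes RANK, at 11.6, 2.1 and 8.3 and 7.74, 1.18 and 6.56, both with overlap. Of the 9 mTEC markers, 8 had a negative interaction term and the median log2 ratio of WT to Aβ0/0 in cTEC was 0.50. Their summed level, 2230 to 3984 CPM in WT and 2693 to 4151 in Aβ0/0 cTEC, came mostly from Krt5 (951 ± 63.4 and 756 ± 148 CPM), Krt14 (965 ± 111 and 941 ± 106) and Ccl21a (1145 ± 784 and 1718 ± 926). The part of mTEC among the sorted cTEC in these levels, and in those of the leading genes above, was not tested.

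**Figure D3:**
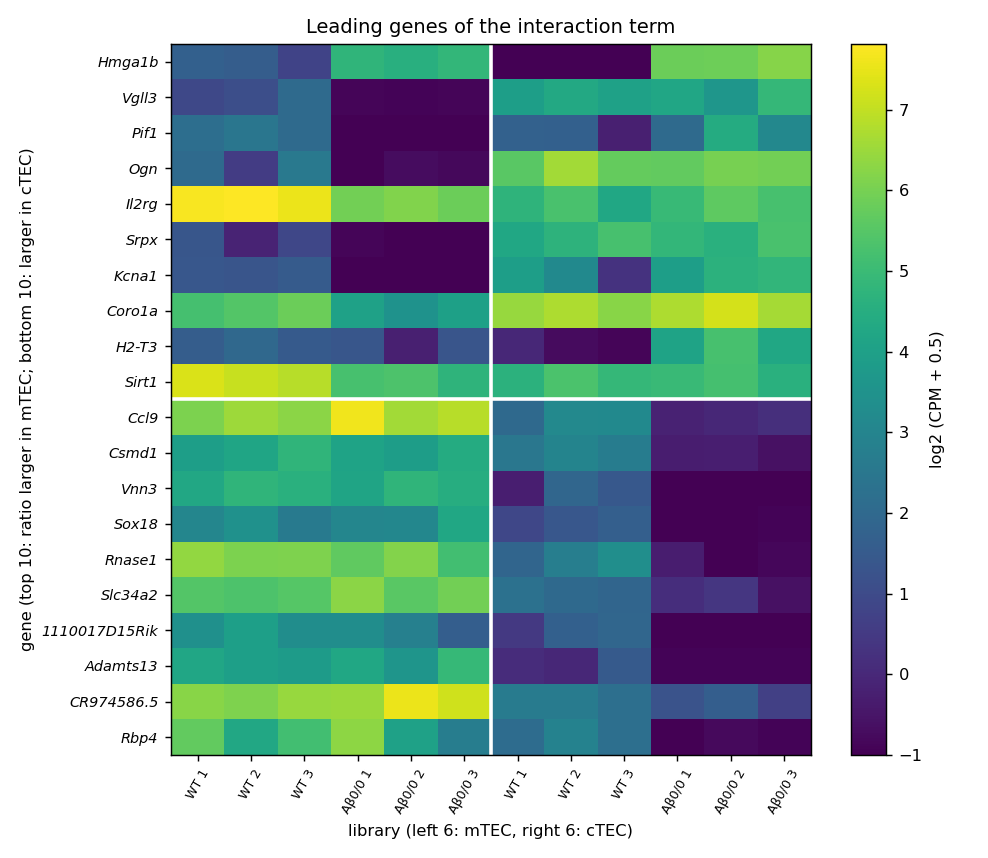
Expression of the 10 leading protein-coding genes in each direction of the interaction term, as log2 of CPM plus 0.5 (colour), in the 6 mTEC libraries (left of the white line) and the 6 cTEC libraries (right). The upper genes are darker in Aβ0/0 mTEC or brighter in Aβ0/0 cTEC, and the lower genes are darkest in Aβ0/0 cTEC.

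The pathways around these genes were described with lists of known members, by counts and medians. Over all 19461 genes, 48.3% had a positive interaction term and the median was -0.037 (0.047 with DESeq2's size factors and 0.141 with voom). In edgeR no list gave a member past the adjusted threshold other than Ccl9 and Hmga1b, while other tools called further members, among them Cd86, Irf8, Oas3, Fga and Fgg by all 3.

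Of 30 genes of the TNF receptor superfamily and the NF-kB pathway, 18 had a positive and 12 a negative term, with a median of 0.09. Cd40 and Nfkbia had a larger ratio in mTEC and Tnfrsf12a in cTEC at an unadjusted p under 0.05, against 3.96% and 2.94% of all genes. Nfkbia, the NF-kB inhibitor that is itself an NF-kB target, was at 1074 ± 148 and 804 ± 196 CPM in mTEC and at 276 ± 28.2 and 352 ± 52.5 in cTEC, a term of 0.77 (SE 0.32, adjusted p = 0.652, edgeR). Tnfrsf12a, the receptor of TWEAK, was at 34.1 ± 4.61 and 53.1 ± 12 CPM in mTEC and at 34.4 ± 10.2 and 21.8 ± 3.49 in cTEC. Among 17 costimulatory and coinhibitory ligands, 12 had a positive and 5 a negative term and the median was 0.62, and it was 0.21 without Aβ0/0 cTEC replicate 1, 0.95 without Aβ0/0 mTEC replicate 1 and 1.15 without WT cTEC replicate 2. Cd86, a ligand of CD28, was at 17.8, 12.4 and 10.3 CPM in WT and 0.0385, 0.214 and 0.603 in Aβ0/0 mTEC, a 47.4-fold difference, and at most 1.27 CPM in each cTEC library, with a term of 6.02 (SE 1.69, adjusted p = 0.39, edgeR). Dendritic cells also express Cd86, and their markers were lower in 2 of the 3 Aβ0/0 mTEC libraries. The part of such cells was not tested. Vsir, which encodes the inhibitory ligand VISTA, was the 1 member with a larger ratio in cTEC at an unadjusted p under 0.05, against 2.94% of all genes. Vsir was at 13.1 ± 1.05 and 22.3 ± 3.14 CPM in mTEC and at 56.2 ± 18.1 and 35.5 ± 18.1 in cTEC. Lgals9, an abundant member that did not pass, had a term of -0.41 (SE 0.45).

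Chemokines recruit thymocytes and dendritic cells to each region. Of 37 ligands, 18 had a positive and 19 a negative term, with a median of -0.12 whose sign changed in 10 of 23 alternative settings. Ccl25, the CCR9 ligand made mainly by cTEC, was at 343, 518 and 384 CPM in WT and 178, 134 and 169 in Aβ0/0 mTEC, and at 1237, 1563 and 1785 in WT and 1461, 4843 and 1780 in Aβ0/0 cTEC, a term of 2.19 (SE 0.56, adjusted p = 0.377, edgeR). The genotypes did not overlap in mTEC but did in cTEC, where 1 Aβ0/0 library stood far above the others. Like Ccl25, Cxcl10 and Ccl4 had a larger ratio in mTEC at an unadjusted p under 0.05, against 3.96% of all genes. Cxcl10 was at 547 ± 115 and 395 ± 130 CPM in mTEC and at 84.7 ± 17.2 and 158 ± 96 in cTEC. Besides Ccl9, the ratio was larger in cTEC at an unadjusted p under 0.05 for Ccl6, Ccl11, Ccl22 and Cxcl9, against 2.94% of all genes. Ccl11, an eosinophil attractant, was at 262 ± 59.3 and 340 ± 108 CPM in mTEC and at 69.2, 69.8 and 76 in WT against 9.88, 43.3 and 18 in Aβ0/0 cTEC, a term of -1.97 (SE 0.62, adjusted p = 0.452, edgeR). Cxcl9, a CXCR3 ligand, was at 131 ± 15.1 and 135 ± 86.8 CPM in mTEC and at 11.2 ± 7.56 and 1.19 ± 0.944 in cTEC. Ccl22, a CCR4 ligand, was at 51.4 ± 1.74 and 13.7 ± 13.6 CPM in mTEC, and at 3.58, 6.43 and 0.16 in WT against 0.0339, 0 and 0.0275 in Aβ0/0 cTEC, with a term of -5.20 that turned to 0.26 on the rlog values. Thus Cxcl9 and Cxcl10, both inducible by interferon-γ, had terms of opposite sign (-3.28 and 1.37, the latter 0.79 without Aβ0/0 cTEC replicate 1). Among 19 chemokine receptors the median was 0.31, between 0.24 and 0.72 when each library was left out and 1.38 with voom. Cxcr5 was at 10.2, 16 and 7.06 CPM in WT and 1.42, 0 and 0 in Aβ0/0 mTEC, Cxcr6 at 0 in Aβ0/0 mTEC and at 3.45, 0.543 and 1.73 CPM in WT mTEC, a mean at least 17.1-fold above the floor, and the scavenger Ackr4 at 17.6 ± 4.41 and 30.7 ± 11 CPM in mTEC against 729 ± 56.4 and 695 ± 93 in cTEC. Markers of B cells, which express Cxcr5, summed to 44.7 to 71.6 CPM in WT and 29.3 to 40.4 in Aβ0/0 mTEC, and their part was not tested.

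The Hippo list around Vgll3 went mostly the other way. Of 25 genes, 6 had a positive and 19 a negative term, with a median of -0.38, between -0.49 and -0.21 over all 23 alternatives. Vgll3 and Tead4 had a larger ratio in mTEC and Ccn1 in cTEC at an unadjusted p under 0.05, against 3.96% and 2.94% of all genes. Tead4, a TEAD factor, was at 1.58, 0.332 and 0.722 CPM in WT mTEC and at 0 in Aβ0/0 mTEC, and at 0.329, 0 and 0 in WT and 2.31, 0 and 0 in Aβ0/0 cTEC, so that its term, 10.47, was 2.93 without Aβ0/0 cTEC replicate 1. Ccn1, a classical target of YAP and TEAD, was at 75.2, 89.4 and 90.6 CPM in WT and 172, 238 and 299 in Aβ0/0 mTEC, without overlap, and at 334 ± 156 and 432 ± 142 in cTEC, a term of -1.10 (SE 0.48, adjusted p = 0.691, edgeR) that was -0.62 without WT cTEC replicate 1.

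The 12 genes of microfold-like mTEC, the list to which Ccl9 belongs, had the lowest median of the 16 lists in this fit, -1.39, with 9 negative terms. Ccl9, Ccl6 and Pglyrp1 had a larger ratio in cTEC at an unadjusted p under 0.05, against 2.94% of all genes. Ccl6, encoded beside Ccl9, was at 52.1, 91.5 and 80.1 CPM in WT and 248, 94.9 and 66.9 in Aβ0/0 mTEC and at 0.823, 5.27 and 8.98 in WT and 0, 2.15 and 0 in Aβ0/0 cTEC. Pglyrp1, a peptidoglycan recognition protein, was at 194 ± 10.8 and 380 ± 340 CPM in mTEC and at 34.6, 34.8 and 28.2 in WT against 18.8, 21.4 and 13.5 in Aβ0/0 cTEC. For both genes, Aβ0/0 mTEC replicate 1 was far above the other 2 libraries. The term of Pglyrp1 was -1.83, and -0.74 without it, and that of Ccl6 was -3.67, and -11.05 without Aβ0/0 cTEC replicate 2, the only Aβ0/0 cTEC library with Ccl6 above 0. The median of the list stayed negative in every alternative, between -2.01 and -0.66 when each library was left out, with -0.66 without Aβ0/0 mTEC replicate 1 and -0.91 without WT cTEC replicate 1. Keratinocyte-like genes (14) had a median of -0.99 with no member past an unadjusted p of 0.05. The median was -0.06 with voom, -0.04 on the rlog values and -0.14 without WT cTEC replicate 2, so it rested on the setting. Krtdap, the most abundant of them, was at 246 ± 15.4 and 258 ± 197 CPM in mTEC and at 131 ± 116 and 44.4 ± 8.02 in cTEC. Thymic tuft cell genes (17) had a median of -0.24, again with 0 members at that level. Lrmp, the most abundant, had a term of -0.66 (SE 0.87), whose sign turned without WT cTEC replicate 1 or Aβ0/0 mTEC replicate 1.

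Interferon-stimulated genes leaned one way. Of 31 genes, 27 had a negative and 4 a positive term, with a median of -0.58, between -0.68 and -0.40 over all alternatives, and 7 had a larger ratio in cTEC at an unadjusted p under 0.05 (2.94% of all genes), while 0 had a larger ratio in mTEC. They included Oas3, Stat2, Zbp1, Irf7, Ifi27l2a and Irf9. Stat2 and Irf9 encode factors that carry the interferon signal to the nucleus. Irf9 was at 122, 144 and 168 CPM in WT and 189, 216 and 237 in Aβ0/0 mTEC, without overlap, and at 240, 269 and 224 in WT and 228, 213 and 249 in Aβ0/0 cTEC, where the genotypes overlapped, with a term of -0.65 (SE 0.27, adjusted p = 0.658, edgeR). Oas3, a sensor of double-stranded RNA, was at 46.1, 27.2 and 42.6 CPM in WT and 60.1, 51.8 and 45.9 in Aβ0/0 mTEC, and at 23.8, 23.9 and 31.2 in WT and 9.74, 8.32 and 10 in Aβ0/0 cTEC, a term of -1.93 (SE 0.41, adjusted p = 0.27, edgeR). Irf7, which amplifies the response, was at 444 ± 98.1 and 543 ± 39.6 CPM in mTEC and at 361 ± 36.8 and 259 ± 24.5 in cTEC. The median log2 ratio of the list was -0.23 in mTEC and 0.32 in cTEC, and the summed level was 5447 to 7119 CPM in WT and 6980 to 9122 in Aβ0/0 mTEC, and 7936 to 12115 and 6899 to 7631 in cTEC. Oasl2, an abundant member that did not pass, had a term of -0.27 (SE 0.29). The plot of list members by interaction term shows nearly all points of this list on one side of 0.
An interferon-stimulated response element was searched for as 2 copies of GAAA separated by 2 bases of any kind, on either strand of the 300 bases around each gene start (RefSeq, GRCm38.p6). It was found in 1079 of the 27025 genes with a sequence (3.99%). Of the 31 genes only 24 had a sequence, under the 80% needed to read a share, so none is given. Of the members with an unadjusted p under 0.05, 4 had a sequence and 2 of these held a match. Members that did not pass, among them Ifit1, Isg15 and Bst2, held matches too. Whether the element goes with the interaction term was not tested. The windows of the 2 are shown, with the match in capitals.
Oas3, chr5:120777715-120777744, minus strand: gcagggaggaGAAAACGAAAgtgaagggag
Stat2, chr10:128270266-128270295, plus strand: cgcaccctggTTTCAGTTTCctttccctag

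**Figure D4:**
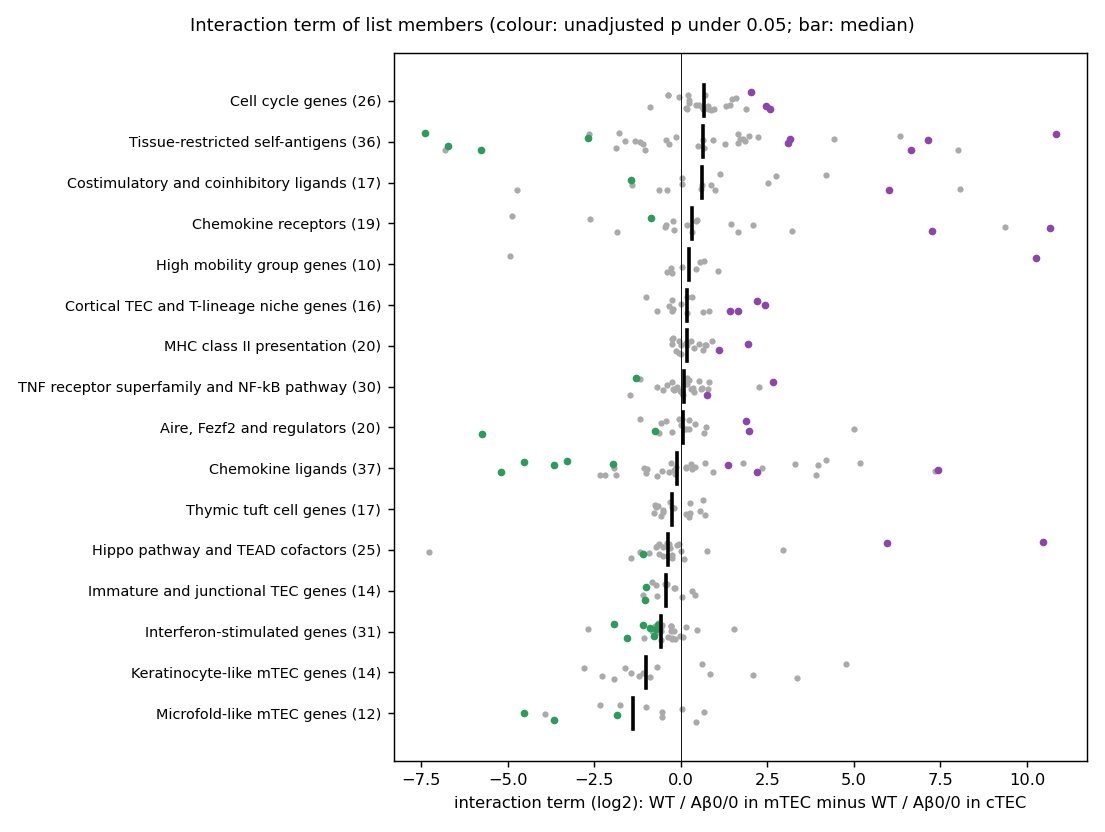
Interaction term (log2, horizontal axis) of the members of 16 lists (points, with the number of genes tested in brackets) and the median of each list (bar). Points in purple or green had an unadjusted p under 0.05. The medians run from -1.39 for microfold-like genes to 0.68 for cell cycle genes, and 27 of 31 interferon-stimulated genes lie left of 0.

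Genes of T cell support in the cortex had a median of 0.18 over 16 genes (0.02 to 0.33 when each library was left out), with 4 at an unadjusted p under 0.05, all with a larger ratio in mTEC (3.96% of all genes): Ccl25, Dll4, Tbata and Foxn1. Foxn1, the master regulator of TEC, was at 170, 123 and 118 CPM in WT and 77.9, 45.8 and 121 in Aβ0/0 mTEC, and at 196, 221 and 78.4 in WT and 270, 308 and 215 in Aβ0/0 cTEC, with overlap in each subset and a term of 1.43 (SE 0.57, adjusted p = 0.625, edgeR). Dll4, the Notch ligand that commits progenitors to the T lineage and a target of Foxn1, was at 23, 17.5 and 8.88 CPM in WT and 7.69, 3.39 and 0.641 in Aβ0/0 mTEC, and at 68 ± 28.8 and 87.9 ± 8.2 in cTEC, a term of 2.44 (SE 0.93, adjusted p = 0.593, edgeR). Tbata, a thymus-enriched gene, was at 506 ± 69.8 and 249 ± 89.8 CPM in mTEC and at 1986 ± 521 and 3061 ± 2155 in cTEC. Immature and junctional genes (14) had a median of -0.44 with 11 negative terms, and -0.26 without Aβ0/0 cTEC replicate 3. Trp63, which maintains epithelial progenitors, was at 133, 129 and 176 CPM in WT and 223, 264 and 295 in Aβ0/0 mTEC, without overlap, and at 611 ± 104 and 534 ± 147 in cTEC, a term of -1.03 (SE 0.36, adjusted p = 0.534, edgeR). Pdpn, a marker of junctional TEC, was at 17.8 ± 4.41 and 34.5 ± 7.49 CPM in mTEC and at 63.1 ± 12.3 and 61.5 ± 2.85 in cTEC.

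Cell cycle genes had the highest median of the 16 lists in this fit, 0.68 over 26 genes, with 22 positive terms. It was 0.31 without Aβ0/0 cTEC replicate 2 and 0.38 without Aβ0/0 mTEC replicate 1. Cenpa, Aurka and Ccnb2 had a larger ratio in mTEC at an unadjusted p under 0.05 (3.96% of all genes). Cenpa, the centromeric histone, was at 14, 18.7 and 13.6 CPM in WT and 8.12, 4.74 and 7.65 in Aβ0/0 mTEC, and at 22.3, 12.9 and 13.6 in WT and 23.7, 43.6 and 50.9 in Aβ0/0 cTEC, without overlap in either subset, a term of 2.45 (SE 0.60, adjusted p = 0.377, edgeR). Aurka, a mitotic kinase, was at 17.8 ± 3.09 and 6.28 ± 4.16 CPM in mTEC and at 12.1 ± 4.86 and 25.6 ± 17.2 in cTEC. Ccnb2, a mitotic cyclin, was at 21.5 ± 5.83 and 7.33 ± 1.31 CPM in mTEC and at 28.4 ± 20.2 and 39.6 ± 17.7 in cTEC. The median log2 ratio of the list was 0.11 in mTEC and -0.48 in cTEC. The summed thymocyte markers were higher in every Aβ0/0 cTEC library than in any WT cTEC library, and their part in these levels was not tested.

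Regulators of Aire and Fezf2 had a median of 0.06 over 20 genes. Besides Sirt1, Irf8, a factor of the interferon regulatory family, had a larger ratio in mTEC at an unadjusted p under 0.05, against 3.96% of all genes. Irf8 was at 236, 263 and 210 CPM in WT and 103, 102 and 87.3 in Aβ0/0 mTEC and at 62, 116 and 63.1 in WT and 108, 154 and 108 in Aβ0/0 cTEC. The genotypes did not overlap in mTEC, and the interaction term was 1.89 (SE 0.38, adjusted p = 0.266, edgeR). The order of the subsets turned with genotype, since the mTEC to cTEC log2 ratio was 1.92, 1.18 and 1.73 in the WT pools and -0.06, -0.59 and -0.30 in the Aβ0/0 pools. Irf4 and Xrcc5 had a larger ratio in cTEC at an unadjusted p under 0.05, against 2.94% of all genes. Xrcc5, a DNA repair protein and partner of Aire, was at 34.6 ± 3.89 and 62.3 ± 11 CPM in mTEC and at 92.8 ± 10.6 and 100 ± 13.3 in cTEC. Irf4 was at 0.123, 4.54 and 0.0399 CPM in WT cTEC, so that 1 library carried its cTEC level, and its term of -5.75 was -1.54 without that library and 0.07 on the rlog values.

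Of 20 genes of MHCII presentation, 14 had a positive term, with a median of 0.17 (0.11 to 0.43 when each library was left out). H2-Eb2 and H2-Oa had a larger ratio in mTEC at an unadjusted p under 0.05, against 3.96% of all genes. H2-Eb2, an MHCII β chain gene near H2-Ab1 (chr17:34325665-34341412), was at 132, 106 and 72.6 CPM in WT and 20.7, 30 and 27.6 in Aβ0/0 mTEC, and at 21.6 ± 4.68 and 20.8 ± 5.7 in cTEC, a term of 1.94 (SE 0.44, adjusted p = 0.357, edgeR). H2-Oa, which limits peptide loading, was at 318 ± 23 and 201 ± 77.3 CPM in mTEC and at 75.3 ± 8.98 and 102 ± 46.3 in cTEC. Cd74, the invariant chain, had a term of 0.63 (SE 0.45).

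Tissue-restricted antigens, which mTEC express for tolerance, split by gene. Of 36 tested, 20 had a positive and 16 a negative term, with a median of 0.65 that was 1.27 without WT cTEC replicate 3 and 1.44 with voom. At an unadjusted p under 0.05, the ratio was larger in mTEC for Fga, Fgg, Csn1s1, Fabp1 and Chga, against 3.96% of all genes. Fgg, the fibrinogen γ chain, was at 25.1, 22 and 14.4 CPM in WT and 0.731, 0 and 0 in Aβ0/0 mTEC, but at 4.07, 5.46 and 2.27 in WT and 5.09, 3.78 and 11 in Aβ0/0 cTEC, a term of 7.13 (SE 1.90, adjusted p = 0.39, edgeR). Without Aβ0/0 mTEC replicate 1, the only Aβ0/0 mTEC library with Fgg above 0, the term was 12.99 (adjusted p = 0.0229, edgeR), a size that depends on the prior count. Csn1s1, a milk casein controlled by Aire, was at 5.14 ± 1.31 and 0.0601 ± 0.0739 CPM in mTEC and at most 0.11 CPM in each cTEC library. At the same level, the ratio was larger in cTEC for Apoa1, Scgb1a1, Ttr and Tff3, against 2.94% of all genes. Each of these was near 0 in Aβ0/0 cTEC and detected in every Aβ0/0 mTEC library. For 3 of them WT cTEC was also near 0 in 1 or more libraries, with 0.0411, 3.05 and 7.66 CPM of Scgb1a1, 0.206, 0 and 1.28 of Ttr and 0.0411, 0.0915 and 1.76 of Tff3. The term of Tff3 was -5.76, and -2.69 without WT cTEC replicate 3, -3.31 without Aβ0/0 mTEC replicate 1 and -0.35 on the rlog values. Apoa1, the main apolipoprotein of high-density lipoprotein, was at 87.8, 66.8 and 69.1 CPM in WT and 77.9, 47.8 and 31.3 in Aβ0/0 mTEC, and at 0.988, 3.08 and 2.11 in WT and 0.102, 0.514 and 0.0551 in Aβ0/0 cTEC, a term of -2.67 (SE 0.90, adjusted p = 0.51, edgeR) that was -4.16 without Aβ0/0 cTEC replicate 2. High mobility group genes had a median of 0.23 over 10 genes (0.06 to 0.50 when each library was left out). Hmga1b was the only one of them at an unadjusted p under 0.05, against 3.96% of all genes with a larger ratio in mTEC.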

How the data were processed

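RNA-seq libraries were made by the authors from sorted TEC with the SMART-Seq v4 kit, which amplifies cDNA of polyadenylated RNA by PCR, and run on a HiSeq instrument. Per the labels, reads were processed with bcl2fastq 2.20.0, Trim Galore, kallisto 0.43 and DESeq2 on mm10. The deposited estimated counts per transcript came from kallisto and are not whole numbers. The deposited TPM values, which correct for transcript length, were written by kallisto too, and the deposited log2 values are the authors' rlog table from DESeq2. TPM was not used for any test.

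Of 109282 transcripts, 107987 had their identifier in GENCODE M21 (GRCm38). Their counts were summed over 34547 genes and rounded. Genes kept by filterByExpr were fitted with edgeR 4.0.16 (TMM, robust quasi-likelihood test, R 4.3.3) in a model of 4 group means on 12 libraries, and the interaction was a contrast of these means. CPM were scaled with TMM. DESeq2 1.42.0, limma 3.58.1, other filters and scales, replicate blocks, 12 fits that each left out 1 library, and the sum of near-identical copies were alternatives. Of the 34677 genes in the rlog table, 32205 were matched by a unique symbol. The procedure was tested on simulated data with independent libraries and changes in WT mTEC alone. That test covers neither shared pools nor genes at the floor.

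Named genes were Ccl9, Cd40, Vgll3 and H2-Ab1, those past an adjusted p of 0.05, the 10 protein-coding genes with the smallest p in each direction and at least 5 CPM in a group, list members with an unadjusted p under 0.05, the 10 leading crossed genes, the most abundant other member of 6 lists, marker genes, and Hmga1. Genes and lists were chosen with earlier results of these data known, so their patterns are not independent evidence. One list gene, Ifi30, was not matched by symbol. One gene that the rule named is not reported here.

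The same-numbered libraries of a genotype were taken to come from one sorting, from the study's list of cell yields and not from the labels. Their deviations from the group means correlated at 0.219, 0.0381 and 0.0822 for WT replicates 1, 2 and 3 and at 0.24, 0.0912 and 0.0546 for Aβ0/0 over 19461 genes. Counting intervals and floors cover counting error only. The p-values of the main fit measure the spread between libraries within groups, without the pairing of the subsets by pool.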

Additional observations from a re-analysis of the deposited data

Results flagged for a closer look

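The interaction term itself passed an adjusted p of 0.05 for 2 genes, and a fixed replicate block ended both calls (adjusted p = 0.178 for each with the pool, 0.0787 for Hmga1b and 0.14 for Ccl9 with the number, edgeR). With the pool as a random block in limma both remained (0.00249 and 0.0337). Hmga1b had a term of 10.25 (adjusted p = 0.00596, edgeR; range over 22 alternatives 6.49e-10 to 0.611), with Aβ0/0 above WT in each subset and the larger difference in cTEC. Its size depends on the prior count, since all WT cTEC libraries were at 0, and with the near-identical Hmga1 added it was 0.80. Whether the reads counted for Hmga1b in Aβ0/0 libraries came from Hmga1b or from Hmga1 cannot be told apart here. Ccl9 had a term of -4.52 (adjusted p = 0.0321, edgeR; range over 23 alternatives 7.98e-10 to 0.266), with Aβ0/0 above WT in mTEC and WT above Aβ0/0 in cTEC. The sign of each was the same in every alternative.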

How the results depend on the processing

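The number of genes past the adjusted threshold depended on the tool. For the interaction it was 268 with DESeq2, 695 with limma voom and 888 on the rlog values, against 2 with edgeR, and leaving out each library gave 1 to 18 (18 without Aβ0/0 mTEC replicate 1, 6 without its replicate 2, 3 without Aβ0/0 cTEC replicate 1). With the replicate block it was 0 for the pool or the number as a fixed term and 857 for the pool as a random term in limma, and with the near-identical copies summed 0. For the effect in mTEC the counts were 641 (DESeq2), 1687 (voom), 1912 (rlog) and 1673 (pool random block), and 0 to 93 without each library. In cTEC they were 296, 27 (voom), 10 (number block) and 25 (pool random block), and 5 to 30. For the average they were 553, 1162, 1099, 23 (number block) and 937 (pool random block), and 11 to 93. Unadjusted calls with a larger ratio in mTEC numbered 1928 (voom), 2875 (rlog) and 2248 (pool random block), and 632 to 1561 without each library (1561 without Aβ0/0 mTEC replicate 1). Those with a larger ratio in cTEC numbered 334 to 1022 (1022 without Aβ0/0 cTEC replicate 1). The share larger in mTEC was 70.0% without Aβ0/0 mTEC replicate 1 and 43.5% without Aβ0/0 cTEC replicate 1. The term changed sign on the rlog values for Ccl22 (0.26) and Irf4 (0.07), and for Lrmp without WT cTEC replicate 1 (0.27) or Aβ0/0 mTEC replicate 1 (0.23), with a range of -1.02 to 0.27 over all libraries left out. Leaving out 1 library also moved terms by over 1.5 times: without Aβ0/0 cTEC replicate 1 those of Chga (1.79) and Lgals9 (-0.15), without its replicate 2 those of Tbata (0.92), H2-Oa (0.69), Cxcr6 (3.77) and Lgals9 (-0.71), without WT cTEC replicate 1 those of Ccl4 (12.75) and Fabp1 (5.59), without its replicate 2 that of Oasl2 (-0.08), without its replicate 3 those of Ifi27l2a (-0.76) and Krtdap (-0.59), without Aβ0/0 mTEC replicate 1 that of Cxcr5 (14.02) and without its replicate 3 that of Ackr4 (-0.54). The cause was not tested. The list medians changed sign in 2 (TNF receptors), 3 (Aire regulators) and 9 (tuft cells) of 23 settings. Of the values for single genes, 1670 kept their call, 102 came past the threshold and 15 lost it.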

Other observations

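Beyond the genes described above, the 1343 genes with an unadjusted p under 0.05 differed in where they are expressed. Of the 771 with a larger ratio in mTEC, 38.4% had a mean of at least 1 CPM in both subsets, and of the 572 with a larger ratio in cTEC 75.0%, against 72.0% of all genes tested. A mean in mTEC at least 4-fold above that in cTEC was found for 19.6% of the former and 26.6% of the latter (12% of all genes), and a mean in cTEC at least 4-fold above that in mTEC for 8.7% and 2.4% (2.3% of all genes).

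Of the genes named above, H2-T3, H2-Eb2, H2-Oa, Tnfrsf12a, Tff3 and Hmga1 lie on chromosome 17 with H2-Ab1. Within 10 Mb of H2-Ab1, 28 of 469 genes had an unadjusted interaction p under 0.05 (5.97%), and elsewhere 6.92%. A genotype difference that is equal in both subsets cancels in this term, so these shares cannot show one near H2-Ab1.

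The genes that passed the adjusted threshold without Aβ0/0 mTEC replicate 1 (18, edgeR) included Fgg, the retinoic acid enzyme Aldh1a1 and the phosphatase Acp5 beside Hmga1b and Ccl9, and those without Aβ0/0 mTEC replicate 2 (6) included Cd83. Aldh1a1, Acp5 and Cd83 were picked after these calls were seen.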
